A study of Mus musculus with 2 samples.

Results

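The Sox genes Sox4, Sox5, Sox9, Sox11, Sox12, Sox13, Sox15 and Sox18 were compared between 2 mouse embryonic stem cell cultures, 1 labelled Mof null (genotype MOF-/-) and 1 labelled wild type (MOF +/+). These 8 members of the family were listed by name, leaving out the pluripotency factor Sox2, the endoderm factors and the remaining ones of 12 other Sox genes on the array, and every probe set annotated to exactly 1 of these symbols was taken. This gave 30 probe sets of 8 genes, of 45101 probe sets on the array and 18193 genes with a probe set of their own. Both lines were derived from 3.5 dpc (days post coitum) C57BL/6 mice and were at passage 15 to 18. They had been kept on mouse embryonic fibroblast feeders with LIF, a cytokine that maintains these cells, and then passaged without feeders before RNA was taken. Mof, gene symbol Kat8, is an acetyltransferase of histone H4. The labels do not say how many lines were derived per genotype.

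Sox proteins are transcription factors that bind the minor groove of DNA through an HMG box and bend it, and they usually act with a partner factor on a neighbouring site. The family is divided into lettered groups by the similarity of that box. Members of a group tend to overlap in function and in the tissues that express them. SoxB1 proteins hold stem and neural progenitor states, SoxC proteins act in neuronal and mesenchymal progenitors, SoxD and SoxE proteins cooperate in cartilage, SoxF proteins act in endothelium and endoderm, and Sox15 is the single SoxG member of mammals.

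Each culture was measured on 1 array, so no value below has a replicate error and no test was possible. Values are the deposited RMA values on a log2 scale, a difference is the Mof null value minus the wild type value, and a fold is 2 raised to its size. Probe sets were called above the level threshold when the higher of their values reached 6.02, the median of all values of both arrays. A difference of at least 1 on the log2 scale, or 2-fold, was counted, and a gene took the value of its brightest probe set. Over the 5362 genes with several probe sets above the threshold, the pooled within-gene SD of the differences was 0.33. It holds no variation between cultures. Levels were compared only within a probe set, since the brightness of different probe sets cannot be ranked. Kat8 was read at 8.37 in the Mof null culture and 8.06 in the wild type culture by 1 probe set. The labels do not state which part of Kat8 was deleted, so this value does not check them.

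Sox4 and Sox9 were lower in the Mof null culture and Sox15 was higher, while Sox11, Sox12 and Sox13 stayed under 2-fold on their brightest probe sets and Sox5 and Sox18 lay below the level threshold on every probe set. Of the 6 member genes above the threshold, 2 were at least 2-fold lower, where 11.9% of the 12015 genes above it were, and 1 was at least 2-fold higher, where 5.09% were. By probe set, 18 of the 30 were above the threshold. Of these, 7 were at least 2-fold lower, against 11.1% of the 20935 probe sets above it, and 2 were at least 2-fold higher, against 4.49%. The 7 lower probe sets belonged to 2 genes and were not independent readings. The median difference of the 6 genes was 0.23, and that of all 12015 genes was 0.10. In a bulk culture, fewer cells that express a gene and less of its RNA per cell cannot be told apart.

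**Figure D1:**
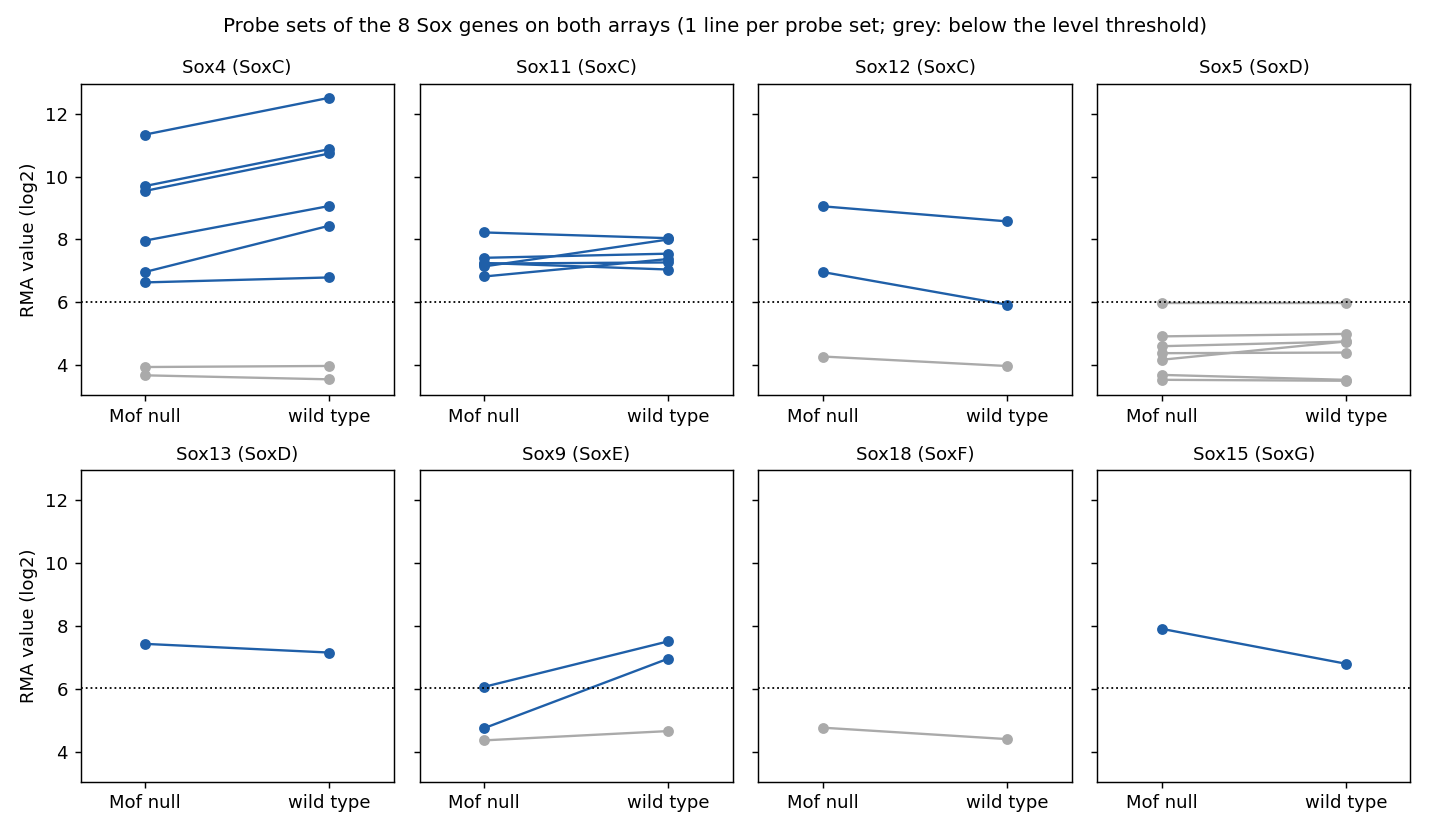
RMA values (log2, vertical axis) of all 30 probe sets in the Mof null culture (left of each panel) and the wild type culture (right), with 1 line per probe set, grey where both values lie below the level threshold of 6.02 (dotted). The 5 brightest Sox4 lines slope up toward wild type by at least 1.10, the 6 Sox11 lines cross, and the Sox15 line slopes down by 1.11.

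Sox4 is a SoxC factor of neural, lymphoid and mesenchymal progenitors and had 8 probe sets (Entrez gene 20677). Its brightest probe set, 1433575_at, read 11.34 in the Mof null culture and 12.51 in the wild type culture, a difference of -1.17 or 2.25-fold lower. The next brightest, 1419155_a_at, read 9.70 in Mof null and 10.87 in wild type, and 1419156_at read 9.54 in Mof null and 10.73 in wild type. Their differences of -1.17 and -1.19 were close to that of the brightest probe set. The probe set 1419157_at read 7.96 in Mof null and 9.06 in wild type, and 1449370_at read 6.96 in Mof null and 8.44 in wild type. In all, 5 of the 6 Sox4 probe sets above the threshold were at least 2-fold lower, with differences between -1.47 and -1.10. Of these 5, 4 were designed from 1 source sequence, so the 5 rest on 2 sequences. The exception above the threshold was 1455867_at, which read 6.63 in Mof null and 6.79 in wild type, a difference of -0.16. The other two, 1443778_at and 1458332_x_at, lay below the threshold in both cultures and differed by 0.13 and -0.03.

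Sox11 and Sox12 are the remaining SoxC factors, with roles that overlap those of Sox4 in neural and mesenchymal progenitors. Sox11 had 6 probe sets, all above the threshold in both cultures, and they differed in sign. The brightest, 1436790_a_at, read 8.22 in Mof null and 8.04 in wild type, a difference of 0.18, and 1453002_at read 7.25 in Mof null and 7.04 in wild type, a difference of 0.21. The largest negative difference was that of 1431225_at, which read 7.14 in Mof null and 7.997 in wild type (-0.86). It was followed by 1429372_at, with 6.82 in Mof null and 7.37 in wild type (-0.56). For the other two, 1453125_at and 1429051_s_at, the differences were -0.13 and -0.04. The SD over the 6 Sox11 probe sets was 0.43 and their median difference -0.08, so the data give Sox11 no direction. Sox12 had 2 probe sets above the threshold, both higher in Mof null. The brighter, 1455562_at, read 9.05 in Mof null and 8.57 in wild type, a difference of 0.48 or 1.39-fold. The dimmer, 1439754_at, read 6.96 in Mof null and 5.92 in wild type, a difference of 1.04. It was the probe set nearest above 2-fold and passed the level threshold only through the Mof null value. The third, 1456882_at, read 4.27 in Mof null and 3.97 in wild type, below the threshold. Relative to the median of the stem cell markers given below, the Sox12 difference was -0.11, so its sign depended on the scaling. Under that scaling the median of all genes above the threshold was -0.49.

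The upstream sequence of Sox4 is shown with that of Sox15 because these members lay past 2-fold in opposite directions and each has a window in the RefSeq promoter table (build GRCm38.p6). The windows are the 250 bases before the annotated start, 5′ to 3′ on the gene's strand. The Sox4 window lies at chr13:28953700-28953949 on the minus strand and the Sox15 window at chr11:69654787-69655036 on the plus strand. Capitals mark matches to CCAAT on either strand, the letters of the box bound by NF-Y.
Sox4: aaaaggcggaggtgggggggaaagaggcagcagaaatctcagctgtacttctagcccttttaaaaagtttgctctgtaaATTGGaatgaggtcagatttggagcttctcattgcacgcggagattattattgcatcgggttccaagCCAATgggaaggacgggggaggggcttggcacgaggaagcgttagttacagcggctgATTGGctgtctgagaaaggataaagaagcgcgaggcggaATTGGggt
Sox15: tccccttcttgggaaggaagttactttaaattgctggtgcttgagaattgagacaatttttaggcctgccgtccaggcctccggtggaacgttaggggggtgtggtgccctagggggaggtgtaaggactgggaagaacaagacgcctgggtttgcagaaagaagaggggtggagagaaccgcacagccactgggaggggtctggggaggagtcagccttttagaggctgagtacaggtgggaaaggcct

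The Sox4 window held 4 matches to CCAAT, beginning 171, 104, 47 and 8 bases before the start, and the Sox15 window held none. The share of windows with 4 matches was not counted, and a link of the matches to the direction of a difference was not tested. Matches to CCAAT on either strand were present in 33.8% of the 32851 promoter windows of the same length and in 3 of the 6 members with a window, namely Sox4, Sox11 and Sox12. Further letters searched on both strands were the GC box GGGCGG, the TATA box TATAAA, the SOX core AACAAT, the octamer ATGCAAAT and the E-box CACGTG. None of these 5 was in the Sox4 or Sox15 window. The GC box was in the windows of Sox11 and Sox12 and in 32.7% of all windows. The octamer, the site of Oct4 and related POU factors, was in the window of Sox12 and in 1.60% of all windows. The SOX core was in none of the 6 member windows and in 9.42% of all windows, TATAAA in none and in 12.4%, and CACGTG in none and in 6.02%. No searched motif matched another at the same bases in the Sox4 window. The GC content was 50.8% for Sox4 and 55.6% for Sox15, near the median of 52.4% over all windows. It was 74.4% for Sox12 and 72.4% for Sox13, and the windows of these genes held 35 and 31 CpG dinucleotides, against a median of 6. The Sox5 window, of a gene below the level threshold, had a GC content of 39.6% and 3 CpG dinucleotides. A match describes letters in a window and not a bound site.

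**Figure D2:**
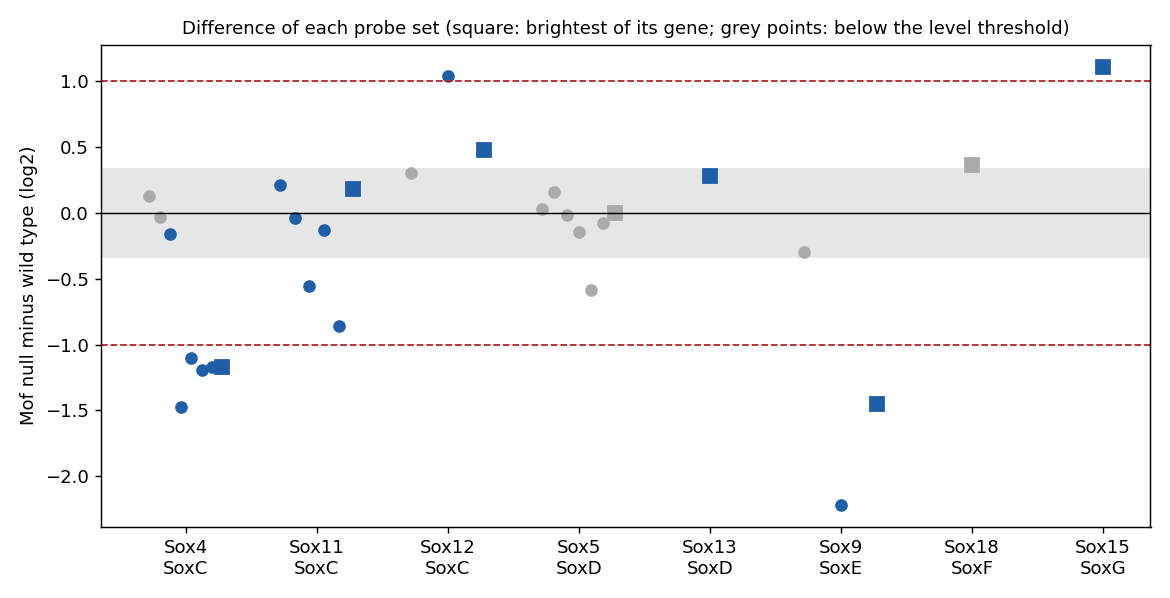
Mof null minus wild type difference (log2, vertical axis) of each of the 30 probe sets, by gene; squares are the brightest probe set of a gene, grey points lie below the level threshold, dashed lines mark 2-fold, and the grey band is the pooled SD of 0.33 between probe sets of a gene. Sox4 and Sox9 hold the 7 probe sets below the lower line, and 1 probe set each of Sox12 and Sox15 lies above the upper line.

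Sox9 is the SoxE factor that specifies cartilage and also acts in gonad, neural crest and epithelial progenitors (Entrez gene 20682). Its brightest probe set, 1451538_at, read 6.07 in the Mof null culture and 7.52 in the wild type culture, a difference of -1.45 or 2.73-fold lower. The probe set 1424950_at read 4.75 in Mof null and 6.97 in wild type, a difference of -2.22 or 4.64-fold lower. It was above the threshold only in wild type, so its passing the filter and its difference were not independent, and both probe sets were designed from 1 source sequence. The third, 1433889_at, read 4.36 in Mof null and 4.66 in wild type, below the threshold in both cultures. The brightest Mof null value of Sox9 thus lay just above the level threshold, near the middle of all values. Among the 12015 genes above the threshold, 7.22% had a lower difference than Sox9 and 9.86% a lower one than Sox4.

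Sox15, the SoxG factor, is expressed in mouse embryonic stem cells and in muscle progenitors and can bind DNA together with Oct4 (Entrez gene 20670). Its 1 probe set, 1452017_at, read 7.91 in the Mof null culture and 6.80 in the wild type culture, a difference of 1.11 or 2.16-fold higher. With 1 probe set there was no second reading of this gene. Of the genes above the threshold, 96.3% had a lower difference. After subtraction of the stem cell marker median, Sox15 was 0.52 higher in Mof null and no longer past 2-fold.

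The SoxD factors Sox5 and Sox13 and the SoxF factor Sox18 showed no difference of 2-fold. Sox5, which cooperates with Sox9 and Sox6 in cartilage, had 7 probe sets, all below the threshold in both cultures, with values from 3.53 to 5.97 in Mof null and from 3.50 to 5.97 in wild type. The brightest, 1432189_a_at, lay just under the threshold and read 5.97 in both cultures, with identical deposited values, which was also true of 968 probe sets of the table in all. The largest Sox5 difference was -0.58, on 1455535_at. Sox13, a SoxD factor studied in T cells and arterial walls, had 1 probe set that read 7.44 in Mof null and 7.16 in wild type. Its difference of 0.28 was smaller than the pooled SD of 0.33 between probe sets of a gene. That SD holds no variation between cultures and gives no error for this difference. Relative to the stem cell markers the Sox13 difference was -0.31, where the median of all genes above the threshold was -0.49. Sox18, a SoxF factor of blood and lymphatic vessels, had 1 probe set that read 4.77 in Mof null and 4.40 in wild type, below the threshold. Detection calls were not used here, so these low readings show neither presence nor absence.

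**Figure D3:**
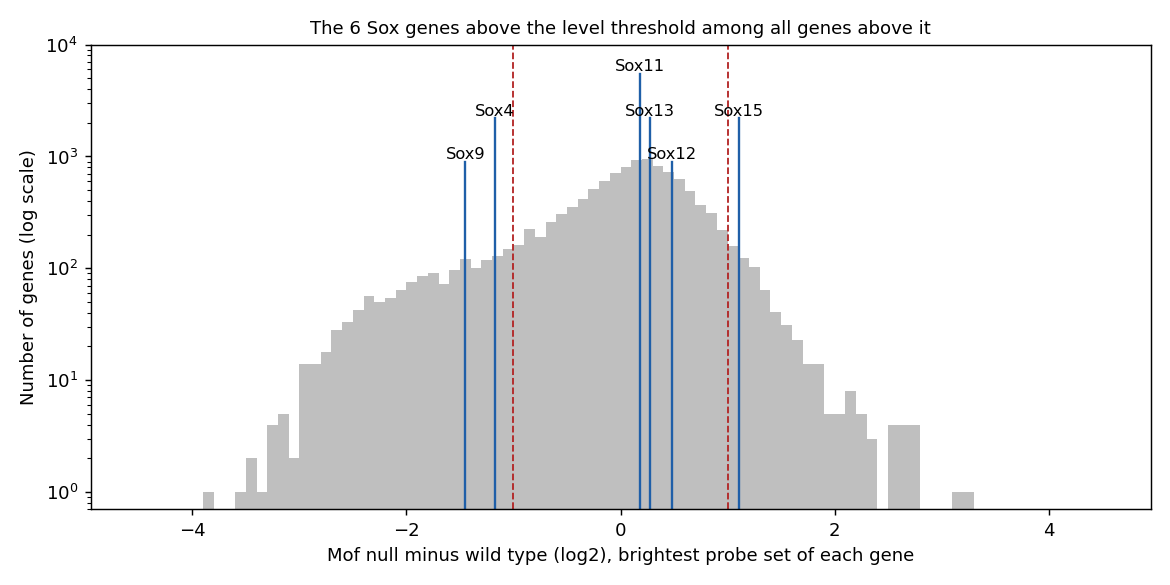
Number of genes (vertical axis, log scale) by Mof null minus wild type difference (log2) for the 12015 genes above the level threshold, with blue lines at the 6 Sox genes among them and dashed lines at 2-fold. Sox9 at -1.45 and Sox4 at -1.17 lie in the lower shoulder, and Sox15 at 1.11 lies just past the upper line.

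Among genes above the threshold, those of the same lettered group differed in sign in SoxC and SoxD and shared a sign in SoxB1, SoxE and SoxF as deposited. In SoxC the brightest probe sets ran from -1.17 for Sox4 to 0.48 for Sox12. In SoxE, both genes above the threshold were lower in Mof null, with Sox10, a neural crest and glial factor, at 5.94 in Mof null and 6.86 in wild type (-0.92, above the threshold only in wild type), while another Sox10 probe set above the threshold differed by -0.02. In SoxF, the endoderm factors Sox17 and Sox7 were higher by 1.43 and 1.08, whereas Sox18 was below the threshold. In SoxB1, Sox1, Sox2 and Sox3 were higher by 1.20, 0.76 and 0.45. The Sox1 probe set read 6.022 in wild type, just above the level threshold, and another Sox1 probe set, below the threshold, differed by 0.41. Sox3 stood at -0.14 relative to the stem cell marker median, where the median of all genes above the threshold was -0.49. Sox6, the SoxD partner of Sox5, differed by -0.49 on a probe set that was above the threshold only in wild type, opposite in sign to Sox13 at 0.28. Sry and Sox21 differed by -0.23 and 0.13, and Sox8, Sox14 and Sox30 lay below the threshold. Over the family, 15 of 20 Sox genes were above the threshold, of which as deposited 2 passed 2-fold in the lower direction (11.9% of all genes did) and 4 in the higher one (5.09% did), and their median difference was 0.28. As deposited, the lower ones were the members Sox4 and Sox9, and the higher ones were Sox15, Sox1, Sox7 and Sox17. Centred on the median gene, Sox10 at -1.03 joined the lower ones and Sox7 at 0.98 left the higher ones. Relative to the stem cell markers 4 Sox genes were at least 2-fold lower, Sox4, Sox9, Sox10 and Sox6, where 24.0% of all genes were, and 0 were at least 2-fold higher, where 0.78% were.

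**Figure D4:**
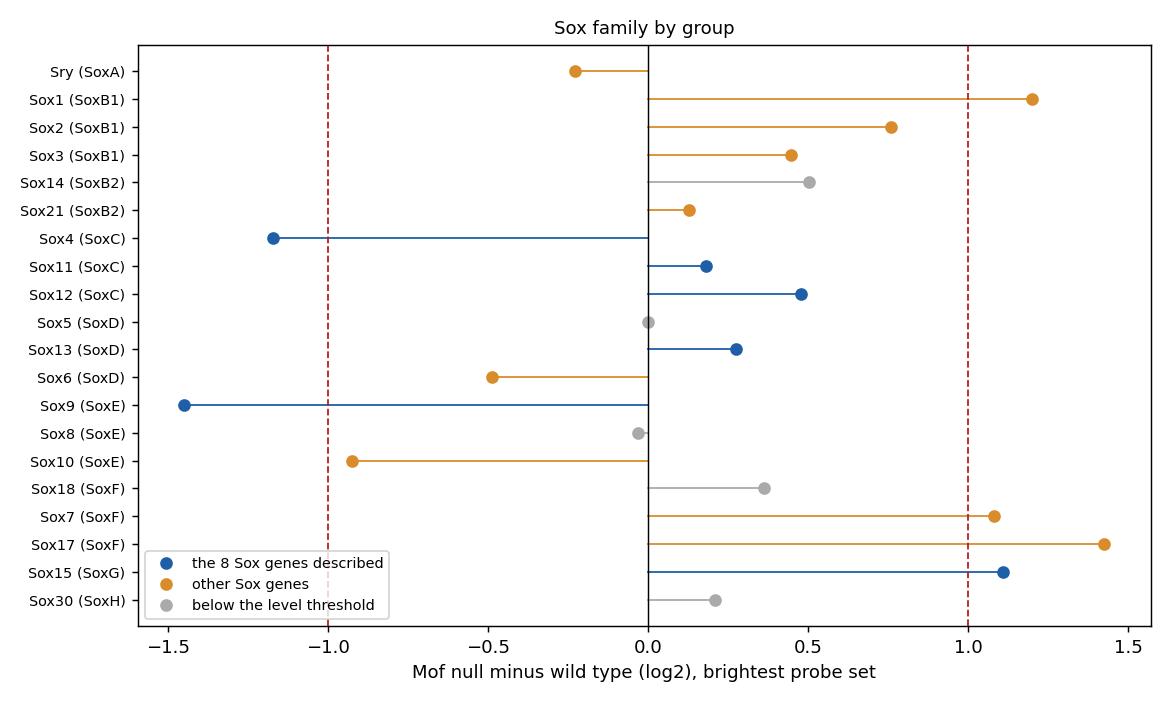
Mof null minus wild type difference (log2, horizontal axis) of the brightest probe set of the 20 Sox genes, ordered by family group, with the 8 members in blue, the other Sox genes in orange and genes below the level threshold in grey; dashed lines mark 2-fold. As deposited, Sox4 and Sox9 are the points left of the lower line, and Sox1, Sox7, Sox17 and Sox15 lie right of the upper one.

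Markers of fibroblasts and macrophages were lower in the Mof null culture. Of 20 fibroblast markers found, all above the threshold, 18 were at least 2-fold lower in Mof null and all 20 were lower. Among all 12015 genes above the threshold, 11.9% were at least 2-fold lower. Their mean level was 10.65 in Mof null and 12.48 in wild type, with values from 7.62 to 13.08 in Mof null and from 10.14 to 14.31 in wild type, and the median difference was -1.86. The collagen gene Col1a1 read 10.21 in Mof null and 13.13 in wild type (-2.92), S100a4 differed by -2.66, the transcription factor Twist2 by -2.51 and the lysyl oxidase-like gene Loxl1 by -2.24. All 15 macrophage markers found were at least 2-fold lower, with a mean level of 8.0 in Mof null and 10.003 in wild type, values from 4.81 to 11.83 in Mof null and from 6.64 to 13.32 in wild type, and a median of -2.05. The adaptor gene Tyrobp, the complement gene C1qc, the macrophage surface receptor gene Adgre1 and the Fc receptor gene Fcgr3 led them at -2.37, -2.32, -2.31 and -2.22. No probe set of these arrays read below 2.77, so a marker value above 0 does not show that its transcript is present. Itgam, at 4.81 in Mof null, was the one macrophage marker under the level threshold there. It passed the threshold only through its wild type value. The Sox4 and Sox9 differences of -1.17 and -1.45 had the same sign as these markers, and the part of such cells in them was not tested.

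Stem cell markers lay in the other direction. All 18 were above the threshold and, as deposited, higher in Mof null on their brightest probe set. When centred on the median gene 16 were higher, and 14 were under the lowess correction. As deposited, 1 of the 18 was past 2-fold, where 5.09% of all genes above the threshold were at least 2-fold higher. Klf2 and Klf4 differed by only 0.02 each, and another Tbx3 probe set above the threshold differed by -0.80. The list had a mean level of 11.78 in Mof null and 11.20 in wild type, values from 10.08 to 14.23 in Mof null and from 9.80 to 13.81 in wild type, and a median difference of 0.59. The growth factor gene Fgf4 was higher by 1.52, Tdgf1 by 0.94, Dppa4 by 0.85 and Gdf3 by 0.84. Pou5f1, which encodes Oct4, read 12.74 in Mof null and 12.22 in wild type, Nanog 12.66 in Mof null and 11.92 in wild type, and Zfp42 11.90 in Mof null and 11.38 in wild type. These markers of embryonic stem cells thus lay above the level threshold in both cultures. Sox2 is in this list as well as among the Sox genes above. As deposited, Sox15, Sox12 and Sox13 had the sign of these markers, as did the brightest Sox11 probe set. So did 56.7% of all 12015 genes above the threshold. The part of the share of stem cells in the Sox differences was not tested.

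Genes of the tissues in which the members are known to act lay in both directions within each list. Among all 12015 genes above the threshold, 11.9% were lower and 5.09% higher by 2-fold or more. The median of all these genes relative to the stem cell markers was -0.49. Of 9 cartilage genes above the threshold, which include known Sox9 targets, 2 were lower and 1 was higher by 2-fold or more. Of these 9 genes, Acan, Col9a2, Runx3 and Snorc passed the threshold only through their Mof null value and Prelp only through its wild type value, so no direction is read from the list. The median of the 4 genes above it in both cultures was 0.21. The collagen gene Col11a1 read 7.83 in Mof null and 9.98 in wild type (-2.15), and the matrix protein gene Prelp differed by -1.65 on its brightest probe set and -0.43 on another. Acan, which encodes the cartilage proteoglycan aggrecan and is a Sox9 target, read 7.14 in Mof null and 5.76 in wild type (1.38), and the matrilin gene Matn3 was higher by 0.99. Of 7 neural crest and glial genes above the threshold, 3 were lower by 2-fold or more and 0 higher, with a median of -0.60, or -1.19 relative to the stem cell markers and -0.19 as deposited without Ednrb, which was above the threshold only in wild type. Snai2 and Twist1, which mesenchymal cells also express, differed by -2.27 and -2.17, the endothelin receptor gene Ednrb by -1.35 and the receptor gene Erbb3 by 0.92. Of 9 neuronal and SoxC-related genes above the threshold, 0 were lower and 1 was higher by 2-fold or more, with a median of 0.22, or -0.37 relative to the stem cell markers. As deposited, 6 of these 9 were higher in Mof null and 3 were lower, the lowest at -0.36. The POU factor gene Pou3f1, above the threshold only in Mof null, was higher by 1.11, the stathmin gene Stmn2 by 0.94 and the RNA-binding protein gene Elavl3 by 0.94. Tead2, a transcription factor gene that SoxC proteins activate in mouse embryos, read 9.52 in Mof null and 8.91 in wild type. Its difference of 0.62, opposite in sign to Sox4 as deposited, was close to the stem cell marker median of 0.59.

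Endothelial genes, the setting of Sox18, went both ways. The short muscle list, the setting of Sox15, did so only through Hand1. Among all genes above the threshold, 11.9% were lower and 5.09% higher by 2-fold or more, and their median relative to the stem cell markers was -0.49. Of 9 endothelial markers above the threshold, 1 was lower and 2 were higher by 2-fold or more, with a median of -0.09, or -0.68 relative to the stem cell markers. The VEGF receptor gene Flt1 differed by -1.21, with probe sets from -1.76 to -0.69, while Pecam1, which embryonic stem cells also express, was higher by 1.16, the junction gene Esam by 1.07 and Egfl7 by 0.85. Of 3 muscle progenitor genes above the threshold, the intermediate filament gene Des differed by -1.20, the Sox15 partner gene Foxk1 by -0.58 and the trophoblast and heart factor gene Hand1 by 0.32.

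**Figure D5:**
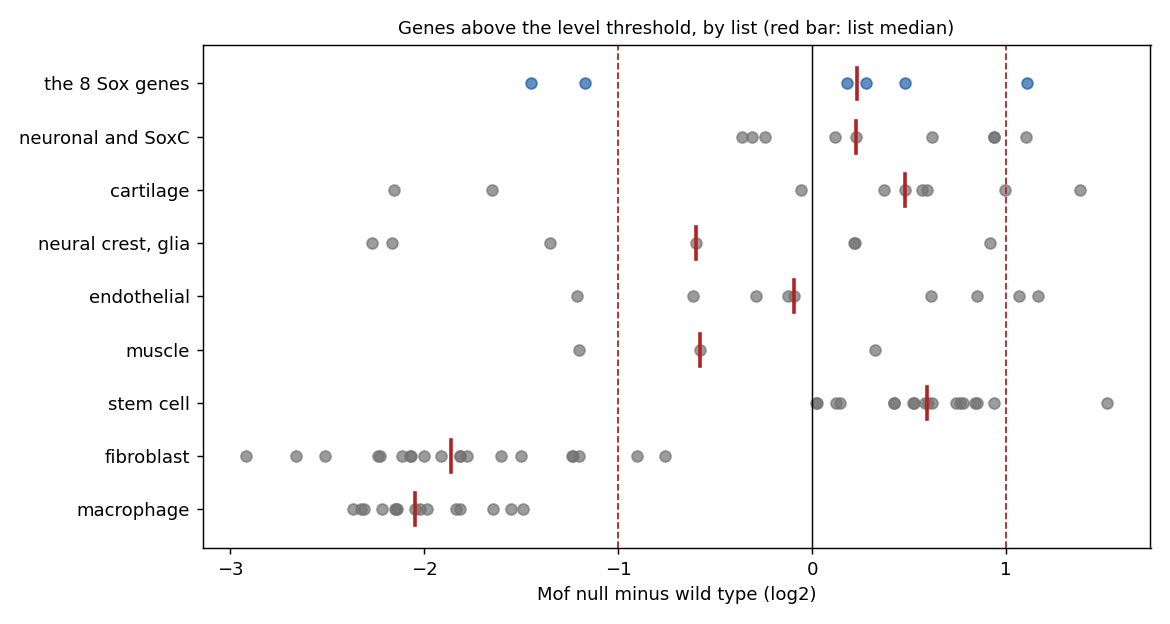
Mof null minus wild type difference (log2, horizontal axis) of the genes above the level threshold, 1 point per gene, for the 6 of 8 Sox genes and the marker lists, with red bars at list medians and dashed lines at 2-fold. The fibroblast and macrophage medians lie at -1.86 and -2.05, the stem cell median at 0.59, and Sox9 and Sox4 lie apart from the other four Sox genes.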

How the data were processed

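Each culture has 1 log2 value for each of 45101 probe sets in the table that the authors deposited. Per the submitters' processing notes, RMA (the R package affy, under R 2.10.0) was used, which corrects background, quantile-normalizes arrays and summarises probes by median polish. A general rise or fall of transcripts is therefore invisible, and differences near the floor are compressed. That the values are log2 follows from their range, 2.77 to 14.7. The number of arrays, 1 per genotype, limits the precision.

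The platform annotation gave 1 symbol to 34958 probe sets, several to 932 and did not list 9211. The 34945 with 1 symbol and 1 Entrez ID, array controls left out, were used, and 34741 of them had an ID in the RefSeq table of GRCm38.p6. The genes named are Kat8, all Sox genes, Pou5f1, Nanog, Zfp42 and, of each list, at most 4 genes above the level threshold with the largest absolute difference. Itgam, Klf2, Klf4, Tbx3, Col9a2, Runx3, Snorc and the neighbouring genes were chosen after values were seen. The members and lists were chosen with earlier results of these data known. Counting and scaling steps were tested on simulated data. Python 3.11.15, numpy 2.4.6, pandas 2.3.3, statsmodels 0.14.6 and matplotlib 3.10.9 were used.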

Additional observations from a re-analysis of the deposited data

How the results depend on the processing

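Each culture had 1 array, so no replicate could be left out. No paired analysis was possible because each genotype had 1 array. Other settings covered the summary over probe sets (their mean, or without the suffixes _s_at and _x_at), the level filter (none, or percentile 75), the scaling (centred on the median gene, lowess with span 0.3, quantile normalization, or relative to the stem cell marker median) and the threshold (1.5-fold or 4-fold). The number of member genes at least 2-fold lower was 1 in place of 2 with the mean over probe sets and with the filter at percentile 75, and 0 at 4-fold, where 9.80%, 12.0% and 3.24% of all genes were. The number at least 2-fold higher was 0 in place of 1 with the filter at percentile 75, relative to the stem cell markers and at 4-fold, where 4.51%, 0.78% and 0.29% of all genes were. At 1.5-fold, 2 members were lower and 1 was higher, where 19.2% and 17.3% of all genes were. Relative to the stem cell markers, 2 members and 24.0% of all genes were at least 2-fold lower. At percentile 75, 2 members were left, Sox4 and Sox12. The median difference of the members was 0.23, and it was -0.35 at percentile 75 and -0.36 relative to the stem cell markers, under which the median of all genes was -0.49 in place of 0.10. Over these settings Sox4 lay between -1.76 and -0.77 and Sox9 between -2.04 and -1.32, each lower in Mof null in every one that gave it a value. The -0.77 for Sox4 came from the mean over its 8 probe sets, 2 of which lie below the level threshold. Sox15 lay between 0.52 and 1.18. Sox11 turned to -0.20 with the mean over probe sets and to -0.41 relative to the stem cell markers.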

Other observations

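The genes next to the members on GRCm38.p6 were looked up after the Sox values had been seen. On either side, the nearest protein-coding gene wholly outside the member was taken and is called its neighbour. A gene overlapping a member was thus passed over. The gaps ran from 1.74 kb for Fxr2 beside Sox15 to 1095 kb for Dcdc2c beside Sox11, so a neighbour was not always close. For Sox15 the neighbours were Fxr2, which encodes an RNA-binding protein related to FMRP, and the macrophage marker Cd68, at a gap of 7.49 kb. Fxr2 read 9.64 in the Mof null culture and 8.91 in the wild type culture, a difference of 0.73, while Cd68 read 8.36 in Mof null and 10.0045 in wild type, a difference of -1.65. Sox15, at 1.11, thus had the sign of the neighbour on its lower side and not that of the other. Cdkal1, a neighbour of Sox4 at a gap of 238 kb, read 8.07 in Mof null and 7.58 in wild type. Its difference of 0.48 was opposite in sign to Sox4 as deposited, but below the stem cell marker median of 0.59. Prl5a1, on the other side of Sox4 at a gap of 797 kb, lay below the level threshold. Slc39a11, a neighbour of Sox9 at a gap of 457 kb, differed by -0.22. Both neighbours of Sox12 were higher in Mof null, Zcchc3 (13.9 kb) by 0.80 and Nrsn2 (17.0 kb), below the level threshold, by 0.74. The interferon-induced gene Cmpk2, a neighbour of Sox11 at a gap of 854 kb, read 4.76 in Mof null and 6.13 in wild type. It was above the level threshold only in wild type. The remaining neighbours above the threshold were Etnk1 and Bcat1 beside Sox5, Snrpe beside Sox13 and Tcea2 beside Sox18. They differed by 0.51, 0.05, 0.32 and 0.27.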
